A study of Bos taurus with 22 samples.

Results

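bta-miR-328, bta-miR-324 and bta-miR-139 (below miR-328, miR-324 and miR-139) are 3 plasma microRNAs of the cow that lie apart from other listed miRNAs in the genome and had lower levels on Day 60 of pregnancy than on Day 0. They were picked by name from the table of 844 listed miRNAs because of that fall, so the difference between the days is a description here and carries no test. All 3 were among the 195 miRNAs that passed the filter on low levels and were tested. That filter asked for more than 25 RPMM (reads per 1000000 miRNA reads of the library) in more than 8 libraries of either day. miR-328 and miR-139 met it on both days, whereas miR-324 met it through Day 0, with 10 of 11 libraries above the limit on Day 0 and 3 of 11 on Day 60.

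Small RNA was sequenced from jugular EDTA plasma of yearling heifers of the Holstein-Friesian breed, 11 animals with no earlier insemination. Each heifer gave 1 library on Day 0, at the synchronised oestrus at which it was inseminated, when it was not pregnant, and 1 on Day 60 of the pregnancy that followed. Libraries of the same animal were paired by the animal number. No heifer left non-pregnant was sequenced alongside, so pregnancy, stage of the cycle and time between samplings cannot be told apart. Total miRNA reads ran from 1912290 to 6839128 per Day 0 library (median 4536808) and from 304117 to 12775451 per Day 60 library (median 7597827). The shallowest library, that of heifer 17 on Day 60, held 10 reads of miR-328, 8 of miR-324 and 15 of miR-139. That library also stood apart in tissue miRNAs, with the liver miRNA miR-122 at 22843 RPMM, against at most 151 RPMM on Day 0 and 140 RPMM in the other Day 60 libraries. Without heifer 17 the log2 fold-changes of miR-328, miR-324 and miR-139 were -1.30, -1.23 and -0.60. In that library, counting error alone gave a 95% interval (exact Poisson) of 15.8 to 60.5 RPMM for miR-328 and 11.4 to 51.8 RPMM for miR-324.

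A miRNA is cut from a hairpin in a longer transcript and guides Argonaute proteins to messenger RNAs that pair with its seed, which lowers their stability and translation. In plasma, miRNAs are carried in vesicles and in protein complexes, and they come from blood cells, endothelium, liver and other tissues, so a plasma level does not name a source. In human and mouse cells, miR-328 is known for repressing the drug transporter ABCG2 and the protease BACE1, miR-324 for repressing Smoothened and GLI1 in hedgehog signalling, and miR-139 for repressing the growth factor receptor IGF1R. None of these targets was measured here.

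Each of the 3 lies on its own chromosome, and none has another listed miRNA within 10000 bases. On bosTau4, by the deposited positions, miR-328 lies on chromosome 18 from 33853557 to 33853578, miR-324 on chromosome 19 from 27316413 to 27316435, and miR-139 on chromosome 15 from 51684315 to 51684337, all on the minus strand. The nearest other listed miRNA was 168830 bases away for miR-328 (the human homologue hsa-miR-645), 136725 bases away for miR-324 (miR-497) and 1309740 bases away for miR-139 (miR-2284aa). In the RefSeq annotation of the later ARS-UCD2.0 assembly, each hairpin falls within the bounds of a protein-coding gene. For miR-328 this is ELMO3, which takes part in cell engulfment and motility. For miR-324 it is ACADVL, the very long-chain acyl-CoA dehydrogenase of mitochondrial fatty acid oxidation. For miR-139 it is PDE2A, a cyclic nucleotide phosphodiesterase. Exon, intron and strand of these hosts are not given in the table used. Each miRNA number has 1 row in the count table, so the opposite arm of each hairpin was not measured here.

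All 3 are minor plasma miRNAs. Together they made up 0.0124 to 0.0343% of the miRNA reads of a Day 0 library (median 0.0280%) and 0.00568 to 0.0204% of a Day 60 library (median 0.0111%). By mean RPMM among the 195 tested miRNAs, miR-328 ranked 134 on Day 0 and 167 on Day 60, miR-139 ranked 156 and 175, and miR-324 ranked 187 on Day 0 and next to last on Day 60. Read shares of different miRNAs also depend on how well each is ligated during library preparation, so their order is one of reads.

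miR-328 had the highest mean and the widest range of the 3 on both days, although on RPMM its Day 60 median was just below that of miR-139. On TMM-normalised RPMM, the scale of the changes below, miR-328 had the higher Day 60 median, 49.8 against 46.8. On Day 0 its level ran from 50.6 RPMM in heifer 32 to 219.3 RPMM in heifer 11, with a median of 140 RPMM and a mean of 143 ± 55.9 RPMM (SD, n = 11). On Day 60 it ran from 16.5 RPMM in heifer 31 to 135 RPMM in heifer 12, with a median of 41.7 RPMM and a mean of 54.1 ± 32.9 RPMM (SD, n = 11). The days overlapped, since 6 of the 11 Day 60 libraries lay below the lowest Day 0 library and 8 of the 11 Day 0 libraries lay above the highest Day 60 library. On TMM-normalised RPMM these counts were 5 and 4. The Day 60 value of heifer 12 stood alone, and the next highest was that of heifer 32 at 85.2 RPMM. Both rest on many reads, 1471 in heifer 12 and 687 in heifer 32. The fitted log2 fold-change was -1.30 (SE 0.31), a level on Day 60 that was 40.5% of that on Day 0.

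miR-324 was the least abundant, and the Day 60 library of heifer 17 held 8 reads of it, too few to count well. The other Day 60 libraries held at least 25. The Day 0 level of miR-324 ran from 22.1 RPMM in heifer 32 to 56.7 RPMM in heifer 11, with a median of 44.3 RPMM and a mean of 40.9 ± 11.5 RPMM (SD, n = 11). Its Day 60 level ran from 4.46 RPMM in heifer 31 to 36.2 RPMM in heifer 32, with a median of 17.4 RPMM and a mean of 18.2 ± 10.1 RPMM (SD, n = 11). Heifer 32 thus held the lowest value of one day and the highest of the other, and 7 of the 11 Day 60 libraries lay below the lowest Day 0 library. On TMM-normalised RPMM that count was 6. Reads of miR-324 numbered 91 to 388 per Day 0 library and 8 to 327 per Day 60 library. The log2 fold-change was -1.16 (SE 0.30), or 44.8% of the Day 0 level.

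miR-139 fell least, and on Day 60 it varied least. On Day 0 it ran from 48.2 RPMM in heifer 12 to 112 RPMM in heifer 10, with a median of 84.6 RPMM and a mean of 77.0 ± 23.5 RPMM (SD, n = 11). On Day 60 it ran from 30.3 RPMM in heifer 29 to 65.9 RPMM in heifer 28, with a median of 42.1 RPMM and a mean of 44.7 ± 10.8 RPMM (SD, n = 11). On RPMM, 7 libraries of Day 60 lay below the lowest of Day 0 and 7 of Day 0 above the highest of Day 60. These counts were 4 and 5 on TMM-normalised RPMM, and 3 and 6 with reads of miR-128 as the scale. The log2 fold-change was -0.57 (SE 0.15), or 67.6% of the Day 0 level. Within the library, miR-328 had more reads than miR-139 in 10 of 11 heifers on Day 0 and in 5 of 11 on Day 60.

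**Figure D1:**
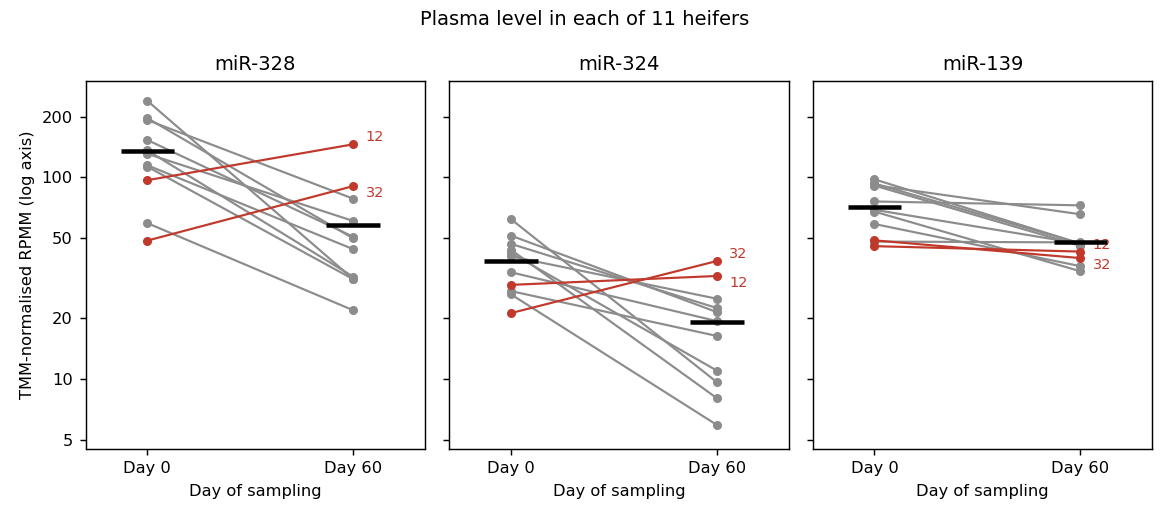
Level of miR-328, miR-324 and miR-139 on Day 0 and Day 60 in TMM-normalised RPMM, on a log axis. Points joined by a line are the libraries of 1 heifer, black bars are means of 11 heifers, and heifers 12 and 32 are drawn in red because miR-328 and miR-324 were higher there on Day 60, while miR-139 was lower in all 11 heifers on this scale.

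All 3 passed the threshold of the edgeR test as lower on Day 60, against a background of 17.9% of tested miRNAs called lower, 17.4% called higher and 35.4% called in either direction. The split moved with the scaling, from 34 higher and 35 lower with TMM to 11 higher and 57 lower with library totals. As this is the contrast that picked them, nothing is read from that count. The median log2 fold-change of the 195 tested miRNAs was -0.06, with single values from -1.60 to 2.05, and 2 tested miRNAs had a lower value than miR-328, 6 than miR-324 and 39 than miR-139. A direction depends on what the reads are scaled to, and the levels below use TMM-normalised RPMM, which correct the library totals for the shift of the bulk of tested miRNAs.

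The animals differed in how far the miRNAs fell, and on TMM-normalised RPMM miR-328 and miR-324 changed in the same direction in every heifer. Both were picked because they fell, and how often other pairs of tested miRNAs share a direction was not counted. Within-heifer changes of miR-328 on the log2 scale (pseudocount 1) ran from -2.90 in heifer 11 to 0.88 in heifer 32, with a mean of -1.27 ± 1.11 (SD, n = 11). Those of miR-324 ran from -2.57 in heifer 11 to 0.83 in heifer 32, with a mean of -1.10 ± 1.03 (SD, n = 11). Both were lower on Day 60 in the same 9 heifers and higher in heifers 12 and 32. In heifer 11 the Day 60 level was 0.130 of the Day 0 level for miR-328 and 0.156 for miR-324, while in heifer 32 it was 1.86 and 1.81 times the Day 0 level. The rise of miR-324 in heifer 12 was small, 1.11 times, and on RPMM it was a fall. There miR-328 rose on RPMM as well, from 102 to 135 RPMM, so the directions differed in that heifer. On RPMM, and with reads of miR-128 as the scale, miR-324 was lower in 10 of 11 heifers and miR-328 in 9. The background share of tested miRNAs lower in at least 9 of 11 heifers was 24.1%.

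miR-139 was lower in 11 of 11 heifers, but by amounts that were close to 0 in several. The changes ran from -1.04 in heifer 26 to -0.01 in heifer 31, with a mean of -0.56 ± 0.40 (SD, n = 11). It was the only tested miRNA lower in all heifers on this scale, against a background of 0.513%. In heifers 12, 14 and 31 the Day 60 level was 0.940, 0.957 and 0.991 of the Day 0 level, so the count of 11 rests on differences that scaling moves. On RPMM it was also lower in 11 of 11 heifers, and with reads of miR-128 as the scale in 10 of 11. On RPMM the counting intervals of the days were apart in heifer 31, at 41.5 to 56.0 RPMM on Day 0 against 32.6 to 39.3 RPMM on Day 60, and in heifer 14, at 73.1 to 99.9 RPMM against 54.8 to 65.0 RPMM. In heifer 12 they overlapped, at 42.9 to 54.1 RPMM against 35.9 to 43.4 RPMM. On TMM-normalised RPMM, the scale of the changes above, the levels were 48.0 and 47.5 in heifer 31. They were 75.8 and 72.5 in heifer 14. Intervals on that scale were not computed, so the RPMM intervals do not show these changes to exceed counting error there.

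**Figure D2:**
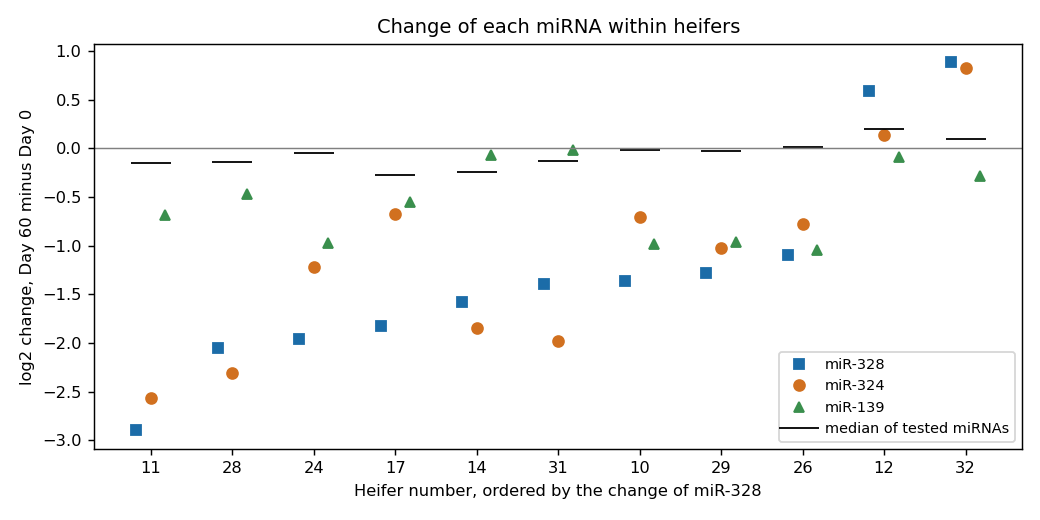
Change of each miRNA within heifers (y axis, log2 of TMM-normalised RPMM plus 1, Day 60 minus Day 0) for 11 heifers on the x axis, ordered by the change of miR-328, with a black dash for the median change of the 195 tested miRNAs in that heifer. The squares of miR-328 and circles of miR-324 lie on the same side of 0 in each heifer, and the triangles of miR-139 lie between -1.04 and -0.01.

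The changes of miR-328 and miR-139 followed each other less closely, although heifer 24 had the third deepest fall of both. Across the 11 heifers the changes of miR-328 and miR-324 had a Pearson r of 0.874 and a Spearman rho of 0.782, given as a description because the changes belong to the contrast that picked the miRNAs. The changes of miR-328 and miR-139 had an r of 0.364 and a rho of 0.0455, and those of miR-324 and miR-139 an r of 0.00956 and a rho of -0.0909. Over all pairs of tested miRNAs the median r of changes was 0.0121, and 98.2% of pairs lay below the value of miR-328 and miR-324. In heifers 14 and 31, the log2 changes of miR-328 were -1.58 and -1.40 and those of miR-324 -1.84 and -1.98, while those of miR-139 were -0.06 and -0.01.

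The choice of the miRNAs used the difference between the days, not how heifers differed within a day, although the levels of each day are also part of the changes above. Within days, too, miR-328 and miR-324 went together. On Day 0 the log2 levels of the 2 miRNAs had a Pearson r of 0.926 over 11 heifers (permutation p = 2e-05, adjusted p = 0.00036 over the 18 relations computed) and the ranks gave a rho of 0.945 (permutation p = 7e-05, adjusted p = 0.00126). Heifers 31 and 32, the farthest from the median of miR-328, were low for both, and without them r was 0.890. On Day 60 r was 0.789 (permutation p = 0.0037, adjusted p = 0.0333) and rho was 0.682 (permutation p = 0.0248, adjusted p = 0.223). Without heifers 12 and 31 it was 0.663. With 1 heifer left out the Day 60 r stayed between 0.713 and 0.915, the latter without heifer 17, but the adjusted p of the permutation test passed 0.05 without any 1 of heifers 10, 11, 12, 24, 26, 28, 29, 31 or 32, and it was highest, 0.144, without heifer 31. With reads of miR-128 as the scale the Day 60 r was 0.693 (permutation adjusted p = 0.108). Of all pairs of tested miRNAs, 99.2% had a lower r on Day 0 and 96.6% on Day 60, where the medians over all pairs were 0.0381 and 0.00369.

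miR-139 did not pass the test with either of the others on either day. On Day 0 it had an r of 0.541 with miR-328 (permutation p = 0.0870, adjusted p = 0.392; rho 0.473, permutation p = 0.146, adjusted p = 0.492) and of 0.391 with miR-324 (permutation p = 0.230, adjusted p = 0.517; rho 0.364, permutation p = 0.274, adjusted p = 0.597). Without heifers 31 and 32 these fell to 0.0830 and -0.0288, so the Day 0 values rest on those heifers. On Day 60 both signs turned, to -0.294 with miR-328 (permutation p = 0.382, adjusted p = 0.626; rho -0.345, permutation p = 0.299, adjusted p = 0.597) and -0.445 with miR-324 (permutation p = 0.170, adjusted p = 0.517; rho -0.545, permutation p = 0.0884, adjusted p = 0.398). Without the 2 heifers farthest from the median of the first miRNA, the Day 60 values were -0.328 without heifers 12 and 31 and -0.330 without heifers 28 and 31. With reads of miR-128 as the scale the Day 60 r of miR-328 with miR-139 was -0.618 (permutation p = 0.0457, adjusted p = 0.137), and with library totals that of miR-324 with miR-139 was -0.193. The difference between these correlations and that of miR-328 with miR-324 was not tested.

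**Figure D3:**
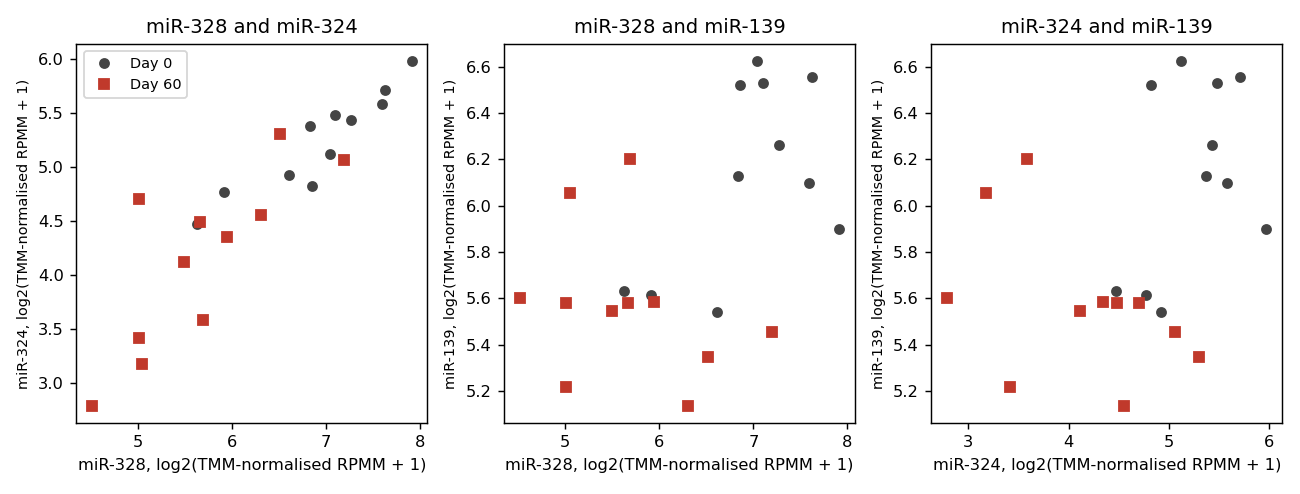
Log2 levels (TMM-normalised RPMM plus 1) of each pair of the miRNAs, with 1 point per library, circles for Day 0 and squares for Day 60. Points of miR-328 and miR-324 rise together on both days (r of 0.926 on Day 0 and 0.789 on Day 60), while those with miR-139 show no such order on Day 60 (r of -0.294 and -0.445).

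Ratios of reads within a library need no scaling, and that of miR-328 to miR-324 varied least in its change between the days. Shifts of the ratios between the days belong to the contrast that picked the miRNAs and are a description. The ratio of miR-328 to miR-324 had a median of 3.64 on Day 0, with a range of 2.26 to 4.21, and of 3.24 on Day 60, with a range of 1.25 to 4.61. It went down in 6 heifers and up in 5, with a mean log2 change of -0.13 ± 0.57 (SD, n = 11). Its lowest value, 1.25, came from the 10 and 8 reads of heifer 17 on Day 60. The ratio of miR-328 to miR-139 went from a median of 1.64 (range 0.997 to 4.09) to 0.964 (0.461 to 3.41) and was lower in 9 of 11 heifers. Its mean log2 change was -0.72 ± 1.05 (SD, n = 11). The ratio of miR-324 to miR-139 went from a median of 0.552 (range 0.300 to 1.06) to 0.413 (0.123 to 0.967) and was lower in 7 of 11 heifers. Here the mean log2 change was -0.60 ± 1.17 (SD, n = 11).

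The spread between heifers was wide for miR-328 on both days and narrow for miR-139 on Day 60. The SD of log2 levels of miR-328 was 0.70 on Day 0 and 0.78 on Day 60, and 88.7% and 85.1% of tested miRNAs had a smaller SD on those days. For miR-324 it went from 0.46 to 0.80, a ratio of 1.75. As miR-324 met the filter through Day 0, which kept its Day 0 levels from running low but not those of Day 60, that ratio is given with no test. For miR-139 the SD went from 0.41 to 0.32 (exact permutation test over all swaps of the days within heifers, two-sided p = 0.393, adjusted p = 0.589 over 3 miRNAs), and 8.72% of tested miRNAs had a smaller SD on Day 60. For miR-328 the ratio was 1.12 (exact permutation test, two-sided p = 0.746, adjusted p = 0.746). Over the tested miRNAs, 70.8% had a larger SD on Day 60, with a median ratio of 1.27. Read numbers alone would give a log2 SD of 0.07 to 0.12 on Day 0 and of 0.14 to 0.23 on Day 60, or of 0.09 to 0.17 on Day 60 without heifer 17.

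A heifer with a high level on Day 0 was not shown to keep it on Day 60. Day 0 and Day 60 levels of miR-328 had an r of -0.114 over 11 heifers (permutation p = 0.741, adjusted p = 0.741 over 3 miRNAs; rho -0.109, permutation p = 0.754, adjusted p = 0.754). For miR-324 r was -0.289 (permutation p = 0.385, adjusted p = 0.577; rho -0.227, permutation p = 0.502, adjusted p = 0.753). For miR-139 it was 0.414 (permutation p = 0.212, adjusted p = 0.577; rho 0.445, permutation p = 0.174, adjusted p = 0.522). Leaving out the 2 heifers farthest from the Day 0 median gave -0.322, -0.436 and 0.490. The median r over the tested miRNAs was -0.0542.

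The miRNAs whose levels went most like those of miR-328 were mostly more abundant ones, as most tested miRNAs were. By mean RPMM miR-328 ranked 134 of 195 tested on Day 0 and 167 on Day 60. All 5 of its most alike miRNAs were called lower on Day 60, as were 17.9% of tested miRNAs. However, miR-324 among them was picked because it was lower. Likeness was the Pearson r of log2 levels over the 22 libraries after each day was centred on its mean, which is a description, as the points share libraries and scaling. For miR-328 the highest values were 0.892 for miR-423-3p, 0.888 for miR-23a, 0.884 for miR-92b, 0.843 for miR-205, an epithelial miRNA, and 0.817 for miR-324. Their mean Day 0 levels reached 17502 RPMM for miR-423-3p and 7122 RPMM for miR-23a. For miR-324 they were miR-328, miR-200a at 0.775, miR-423-3p at 0.759, miR-23a at 0.754 and hsa-miR-210-3p, a hypoxia-induced miRNA listed as a human homologue, at 0.730. Of these, miR-200a was not called lower (log2 fold-change -0.39).

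miR-139 had other and weaker neighbours. They were miR-532 at 0.624, miR-432 at 0.616, miR-214 at 0.573, miR-335 at 0.551 and miR-99a-5p at 0.546, none of which passed the edgeR test between the days. miR-328 ranked 62 among the other tested miRNAs by likeness to miR-139, at 0.149, and miR-324 lay lower, at -0.0846. At the opposite end, let-7c had the lowest value with both miR-328 (-0.740) and miR-324 (-0.714), and miR-18a with miR-139 (-0.508). The value of miR-18a came from Day 0, at -0.869, and on Day 60 it was 0.0148.

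**Figure D4:**
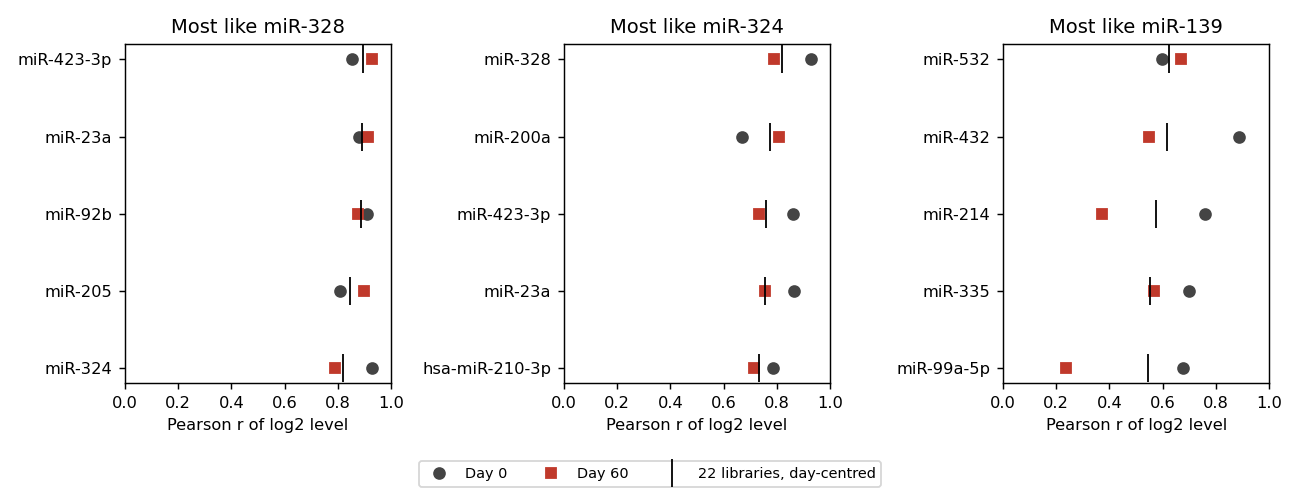
Pearson r of log2 levels between each of the 3 miRNAs and its 5 most like tested miRNAs, over the 11 Day 0 libraries (circles), the 11 Day 60 libraries (squares) and all 22 day-centred libraries (bars). Those of miR-328 and miR-324 lie at 0.667 or above on both days, while for miR-139 the values of miR-214 and miR-99a-5p drop to 0.371 and 0.237 on Day 60.

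Markers of other cells moved between the days as well, and their part in the fall of the 3 miRNAs was not tested beyond the red cell values given here. Plasma held red cell miRNAs in every library, and none of miR-451, miR-144 and miR-486 was at 0. Their summed level ran from 66967 to 326751 RPMM on Day 0 and from 121309 to 359251 RPMM on Day 60. Of the 3, 1 was called higher on Day 60, miR-451, against 17.4% of all tested miRNAs. The ratio of miR-451 to miR-23a, an index of haemolysis named in the study's methods, was taken here on reads. It had a median of 1.83 on Day 0 and 8.56 on Day 60 and was above 5, the limit those methods mention, in 3 and 9 of 11 libraries, though miR-23a itself was lower on Day 60. That limit belongs to the study's own screen of its plasma samples. Whether it carries over to a ratio of reads was not tested, so these counts class no library as haemolysed. With the red cell level of each library as a covariate, the log2 fold-changes of miR-328, miR-324 and miR-139 were -1.11 (SE 0.39), -1.03 (SE 0.37) and -0.59 (SE 0.17). With that covariate none of these 3 passed the threshold (edgeR adjusted p = 0.0791, 0.0791 and 0.0610, unadjusted p = 0.0133, 0.0152 and 0.0043). Over all tested miRNAs 0 passed as lower and 7 as higher (edgeR), against 27 lower and 36 higher at an unadjusted p under 0.05.

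Within a day the red cell level had no relation with miR-328 or miR-324 that passed. On Day 0 it had an r of -0.368 with miR-328 (permutation p = 0.268, adjusted p = 0.536; rho -0.255, permutation p = 0.450, adjusted p = 0.757) and of -0.331 with miR-324 (permutation p = 0.318, adjusted p = 0.572; rho -0.191, permutation p = 0.579, adjusted p = 0.802). On Day 60 these were -0.167 (permutation p = 0.623, adjusted p = 0.701; rho -0.227, permutation p = 0.504, adjusted p = 0.757) and -0.199 (permutation p = 0.552, adjusted p = 0.701; rho -0.136, permutation p = 0.693, adjusted p = 0.891). With library totals the Day 0 values were -0.554 for miR-328 (permutation p = 0.0744, adjusted p = 0.268) and -0.619 for miR-324 (permutation p = 0.0425, adjusted p = 0.191). miR-139 was lower where the red cell level was higher on Day 0, with an r of -0.690 (permutation p = 0.0211, adjusted p = 0.127; rho -0.555, permutation p = 0.0824, adjusted p = 0.398), and -0.409 without heifers 12 and 32. That relation passed with library totals (r = -0.785, permutation adjusted p = 0.0210). It also passed without heifer 17 (r = -0.812, permutation adjusted p = 0.0376), the only heifer left out singly for it. Red cell reads are part of the library total, up to 326751 RPMM on Day 0. With library totals the summed share of all other miRNAs must fall as theirs rises, so little is read from those values. On Day 60 the sign for miR-139 was the opposite, with an r of 0.427 (permutation p = 0.193, adjusted p = 0.517) and a rho of 0.455 (permutation p = 0.164, adjusted p = 0.492). For miR-328 and miR-324, leaving out the 2 heifers farthest from the median red cell level gave 0.0422 and 0.139 on Day 0 and -0.243 and -0.0258 on Day 60, and for miR-139 on Day 60 it gave 0.147.

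Library depth had no relation with any of the 3 that passed. On Day 0 r with log2 miRNA reads was -0.180 for miR-328, -0.171 for miR-324 and -0.251 for miR-139 (permutation p = 0.596, 0.610 and 0.447, adjusted p = 0.701, 0.701 and 0.670). On Day 60 r was 0.419, -0.0885 and -0.0615 (permutation p = 0.204, 0.817 and 0.839, adjusted p = 0.517, 0.839 and 0.839). Spearman rho was -0.0455, -0.0273 and -0.227 on Day 0 (permutation p = 0.905, 0.947 and 0.502, adjusted p = 0.947, 0.947 and 0.757) and 0.427, 0.0636 and -0.0636 on Day 60 (permutation p = 0.192, 0.861 and 0.863, adjusted p = 0.494, 0.947 and 0.947). Leaving out the 2 heifers of the most extreme depth, 14 and 17 on Day 0 and 17 and 28 on Day 60, gave -0.171, -0.0659 and -0.271 and then 0.272, 0.0688 and 0.204.

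Of the other lists, leukocyte miRNAs held 3 of 6 tested rows higher (miR-142-5p, miR-150 and miR-155) and 0 lower. With DESeq2 5 of 6 were higher. Over all tested miRNAs 17.4% were called higher by edgeR. The log2 fold-change of miR-223 was -0.19 (SE 0.18) and did not pass. The median over the 6 leukocyte rows was 0.59, with a summed level of 32566 to 47486 RPMM on Day 0 and 34657 to 68815 RPMM on Day 60. The platelet, liver and muscle lists held 0 calls by edgeR, DESeq2 and limma-voom, and 0 at an unadjusted p under 0.05. Some of their members were not tested and reached high values in single Day 60 libraries, as miR-122 and the muscle miRNA miR-1 (88.8 RPMM) did in heifer 17 and the muscle miRNA miR-208b (1286 RPMM) in heifer 28. Their median levels on Day 0 and Day 60 were 43.0 and 43.4 RPMM for miR-122, 0.645 and 2.65 RPMM for miR-1 and 40.4 and 19.7 RPMM for miR-208b. The 6 tested platelet miRNAs came with a median of -0.15 and sums of 29212 to 67034 RPMM and 27627 to 61746 RPMM. The 2 tested liver miRNAs came with a median of -0.12 and sums of 34019 to 81789 RPMM and 22007 to 78354 RPMM. The 2 tested muscle miRNAs came with a median of 0.07 and sums of 61.8 to 2487 RPMM and 69.3 to 11476 RPMM. miRNAs rich in brain, where miR-139 and miR-328 are also expressed, held 3 of 4 tested rows lower, against 17.9% of all tested miRNAs, miR-132 at -0.55 (SE 0.18), miR-138 at -0.70 (SE 0.21) and miR-338 at -0.46 (SE 0.16), while miR-128 had -0.09 (SE 0.14) and did not pass. The median of these 4 was -0.51, against -0.06 over all tested miRNAs, and their list summed to 3074 to 3742 RPMM on Day 0 and 1551 to 3633 RPMM on Day 60. Most of that sum was miR-128, and miR-124a and miR-124b, which define neurons, had no row, while miR-137 was at 0 in 21 of 22 libraries. Among the untested members, miR-9-5p and miR-383 had median levels of 2.61 and 2.80 RPMM on Day 0 and of 3.32 and 5.46 RPMM on Day 60, and both were highest in heifer 17 on Day 60, at 145 and 52.6 RPMM.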

How the data were processed

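Small RNA of bovine plasma was sequenced by the authors (TruSeq Small RNA libraries, Illumina HiSeq), who assigned reads with sRNAbench (Bowtie 0.12.9, per the labels) on bosTau4 and miRBase and deposited read counts for 611 bovine miRNAs and 233 human homologues in 22 libraries. The deposited normalised table and the authors' test results were not used. RPMM were computed over all miRNA reads, and TMM factors over the 195 tested miRNAs. The days were compared in R 4.3.3 with edgeR 4.0.16 (quasi-likelihood), each heifer being a block, and p-values were adjusted by Benjamini-Hochberg with a threshold of 0.05. The animal number in the labels pairs libraries of 1 heifer. Across miRNAs their deviations from the day means had a mean r of 0.141, against -0.00628 between heifers. The former ran from -0.314 to 0.583 and the latter from -0.513 to 0.632. In 3 heifers the own library was the best match, so these values are a weak check of the pairing. Correlations used log2(TMM-normalised RPMM + 1) and 100000 permutations, two-sided (smallest p 1e-05), adjusted over 18 relations within days or 3 between days. Intervals are 95% exact Poisson and cover counting error only. Steps were tested on simulated data.

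The members and lists were chosen with earlier results of these data known. Named miRNAs are the 3 members, the 5 most like each by r, the lowest by r (chosen after values were seen) and those of the marker lists. Red cell, platelet, leukocyte, liver, muscle and brain lists came from general knowledge; miR-223 is in the platelet and leukocyte lists. Alternatives used limma 3.58.1 and DESeq2 1.42.0, other scalings and filters, no block, and each heifer left out. Sequence features could not be computed from the sources used here.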

Additional observations from a re-analysis of the deposited data

How the results depend on the processing

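The log2 fold-change of each of the 3 miRNAs stayed negative under every alternative run, from -1.51 to -1.11 for miR-328, -1.37 to -1.003 for miR-324 and -0.75 to -0.48 for miR-139, and calls were lost with the red cell covariate (-1.11, -1.03 and -0.59) and, for miR-139, with no filter on low miRNAs (-0.48). With a filter at 100 RPMM miR-324 and miR-139 were not tested. Without the replicate block the values were -1.20, -1.02 and -0.58 and no call changed. Of tested miRNAs 34 were higher and 35 lower, against 11 and 57 with library totals, 21 and 58 with upper quartile scaling, 35 and 20 with reads of miR-128 as the scale and 37 and 17 with no filter. With the red cell covariate, a count added after seeing the data, they were 7 and 0 (36 and 27 at an unadjusted p under 0.05, edgeR). Omitting single heifers gave 17 to 41 higher and 16 to 57 lower. Over tested miRNAs the median log2 fold-change was -0.06 under TMM, -0.25 under library totals, -0.22 under the upper quartile and 0.02 under miR-128 scaling.

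The Day 60 r of miR-328 with miR-324 was 0.693 with miR-128 scaling and 0.713 to 0.915 with 1 heifer left out. The log2 ratio of SDs of miR-324 was 0.81, and 0.98 with library totals, 0.64 with miR-128 scaling and 0.63 to 0.98 with 1 heifer left out. That of miR-328 was 0.17, and -0.22 with miR-128 scaling and -0.20 to 0.42 with 1 heifer left out, below 0 without heifer 12. The r of miR-328 between the days ran from -0.464 to 0.148 with 1 heifer left out, above 0 at 0.0172 without heifer 11 and 0.148 without heifer 32, and that of miR-324 from -0.615 without heifer 31 to -0.0292 without heifer 32. The log2 ratio of SDs of miR-139 was -0.36, with -0.76 without heifer 14, -0.19 without heifer 12 and -0.14 with miR-128 scaling. The r of miR-324 with depth on Day 60 was 0.258 without heifer 17. The cause of these shifts was not tested. Depth limits miR-324 most, at 8 reads in the shallowest library.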
